A study of Mus musculus with 35 samples.

Results

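H3K4me1 peaks were compared between haematopoietic stem and progenitor cells (HSPC) of Flt3-ITD mice and of WT mice. The comparison used 4 libraries of the 35 samples in the series, of which 30 had a peak file: 2 libraries of Flt3-ITD HSPC and 2 of WT HSPC, described in the series as replicates of separate biological material. All were lineage-negative bone marrow cells of C57BL/6 mice, taken from femurs and tibias after red cell lysis and depletion of lineage-positive cells, and no treatment is named. The labels give neither age nor sex, and neither the dosage of the Flt3-ITD allele nor how it was made. Peaks on chromosomes 1 to 19 of the 4 lists were merged where they touched or overlapped, which gave 164394 regions. A region was called gained when both Flt3-ITD libraries and neither WT library had a peak in it, lost in the reverse case, and constant when all 4 had one. By this rule 5789 regions (3.52%) were gained, 8743 (5.32%) were lost and 84003 (51.1%) were constant. The same mark in HSPC of Npm1c mice, named for the mutant form of nucleophosmin that is found in the cytoplasm, and of DM mice, read here as the double mutant although the labels do not spell it out, and in WT neutrophils (Neu), 2 libraries each, is given as a level beside the comparison.

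H3K4me1, monomethylation of lysine 4 of histone H3, marks enhancers, active or poised, and the flanks of promoters. H3K27ac is added to enhancers and promoters in use, and H3K4me3 marks promoters. FLT3 is a receptor tyrosine kinase of early haematopoietic progenitors, and an internal tandem duplication (ITD) in its juxtamembrane part, frequent in acute myeloid leukaemia, makes it signal without ligand through STAT5 and the RAS-MAPK and PI3K pathways. Lineage-negative bone marrow is a mixture of stem cells and committed progenitors, so a lower share of marked cells and less mark per cell cannot be told apart here.

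Sequence is shown for promoters of genes, among the largest rises and falls described below, that a gained or lost region overlapped, so that the letters under or beside the changed mark can be read. Each run is the 250 bases before the start site, in the direction of transcription, from the RefSeq promoter table of GRCm38.p6. Capitals mark matches to the motifs searched on both strands. These were GATAA (GATA factors), TTCNNNGAA (STAT), TGANTCA (AP-1), TGTGGT (RUNX), CACCC (KLF) and TTGCNNCAA (C/EBP). Cd8a, a T cell coreceptor chain, lay under the gained region chr6:71372650-71374432, and its promoter (chr6:71373177-71373426, plus strand) held a GATAA and CACCC matches on the minus strand:
Cd8a: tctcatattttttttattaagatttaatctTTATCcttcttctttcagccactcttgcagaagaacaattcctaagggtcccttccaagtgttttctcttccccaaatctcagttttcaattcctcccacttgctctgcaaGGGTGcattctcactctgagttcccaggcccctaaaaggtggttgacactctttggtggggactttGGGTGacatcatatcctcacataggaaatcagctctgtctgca
Ms4a19, of the membrane-spanning MS4A family, lay under the gained region chr19:11164917-11166008, and its promoter (chr19:11165331-11165580, minus strand) held none of the motifs:
Ms4a19: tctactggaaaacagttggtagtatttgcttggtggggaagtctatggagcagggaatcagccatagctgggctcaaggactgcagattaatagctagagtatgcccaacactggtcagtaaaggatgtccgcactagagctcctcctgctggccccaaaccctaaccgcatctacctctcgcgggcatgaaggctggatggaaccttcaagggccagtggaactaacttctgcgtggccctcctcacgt
Hpgd, a dehydrogenase that inactivates prostaglandins, lay under the gained region chr8:56294116-56295355, and its promoter (chr8:56294302-56294551, plus strand) also held none:
Hpgd: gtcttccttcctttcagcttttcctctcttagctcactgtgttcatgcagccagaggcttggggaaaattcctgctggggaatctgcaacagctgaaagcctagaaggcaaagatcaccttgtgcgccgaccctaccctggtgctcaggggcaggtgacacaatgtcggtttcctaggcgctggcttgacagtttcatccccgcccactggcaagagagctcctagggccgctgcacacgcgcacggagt
Eef1e1, an auxiliary protein of the aminoacyl-tRNA synthetase complex, had the lost region chr13:38659241-38660349, which reached only the far end of its promoter (chr13:38659029-38659278, minus strand). That promoter held a TTCNNNGAA and a TGTGGT match, both outside the lost region:
Eef1e1: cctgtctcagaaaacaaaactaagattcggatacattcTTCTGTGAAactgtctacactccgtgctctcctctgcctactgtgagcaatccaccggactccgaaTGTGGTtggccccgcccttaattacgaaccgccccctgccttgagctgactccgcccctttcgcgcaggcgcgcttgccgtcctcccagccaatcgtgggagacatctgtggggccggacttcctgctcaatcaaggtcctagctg

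Few promoters lay under a changed region. Of 20085 windows (250 bases before to 50 after the start, 16457 genes), 182 overlapped a gained region, 155 a lost one and 6842 a constant one. GATAA was in 22.3% of all windows, in 24.7% under gained, 23.9% under lost and 16.6% under constant regions. TTCNNNGAA was in 7.78% of all windows, 6.04% under gained and 11% under lost regions. TGANTCA was in 7.06% of all windows, in 3 windows (1.65%) under gained regions and in 8 (5.16%) under lost regions. CACCC was in 59.9%, 61.0% and 60.6%, TGTGGT in 14.8%, 13.2% and 16.8%, and TTGCNNCAA in 1.76%, 1.65% and 2.58%, of all windows and those under gained and lost regions. These shares are descriptions of windows and were not tested, and the median GC content was 57.7% under gained, 55.7% under lost and 60.3% under constant regions.

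The lists of the 4 libraries were of similar size. The WT libraries had 120888 and 129009 peaks on chromosomes 1 to 19 and the Flt3-ITD libraries 127505 and 114959, so the groups overlapped (exact permutation test over libraries, two-sided p = 0.667, where 0.333 is the smallest p that 2 against 2 allows). Every H3K4me1 peak was 1000 bp wide, so a gene's coverage changes mostly by whole kb, and no file gives read depth. Off chromosomes 1 to 19 the WT libraries had 1988 and 2196 peaks and the Flt3-ITD libraries 1293 and 1191, and these were left out. The Jaccard index, shared over combined length, was 0.548 between the WT libraries, 0.495 between the Flt3-ITD libraries and 0.460 to 0.479 between libraries of different genotype. Of 2 progenitor markers, the Kit window (the gene span plus 10 kb on each side) held 20 and 20 kb of peak in WT against 24.4 and 21 kb in Flt3-ITD. The Cd34 window held 6.90 and 7 kb against 7.88 and 6 kb. The median window of all genes tested held 5.14 and 6 kb in WT and 5.96 and 5 kb in Flt3-ITD, so Kit lay well above it and Cd34 close to it. Markers of mature cells carried the mark as well. Of 26 mature neutrophil genes Ly6g alone had no peak in any of the 4 libraries, and the list's median window held 5 and 5.5 kb in WT and 4.84 and 3.5 kb in Flt3-ITD. Of 20 eosinophil, basophil and mast cell genes 19 were tested, and of these Fcer1a alone had none. The median window of the 19 held 6.61 and 6 kb in WT and 6 and 6 kb in Flt3-ITD.

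Gained and lost regions lay mostly away from start sites. A known start was within 1 kb of 398 gained regions (6.88%) and 420 lost regions (4.80%), against 18.7% of constant regions. Lost regions were in a gene body more often than gained ones, 62.1% against 55.7%, and gained regions were outside genes more often, 37.4% against 33.1%. Their median widths were 1120 bp and 1110 bp, close to a single peak, against 1262 bp for constant regions. Single libraries had many peaks of their own: 12714 regions were in Flt3-ITD library 1 alone, 5506 in Flt3-ITD library 2, 6104 in WT library 1 and 9643 in WT library 2. The regions seen in 1 of 2 Flt3-ITD libraries and in no WT library numbered 18220, more than the gained ones, and those in 1 WT library only 15747, more than the lost ones.

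Many of the changed regions lay close to a peak of the other genotype. Of the gained regions, 41.3% were within 1 kb of a WT peak and a further 31.7% within 5 kb. For lost regions the shares within 1 kb and from 1 to 5 kb of a Flt3-ITD peak were 32.1% and 41.6%. The median distance was 1.48 kb for gained and 1.98 kb for lost regions. Isolated changes, 5 kb or more from any peak of the other genotype, were 1562 gained regions (27%) and 2302 lost ones (26.3%). At 100 kb or more there were 103 gained and 48 lost regions.

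**Figure D1:**
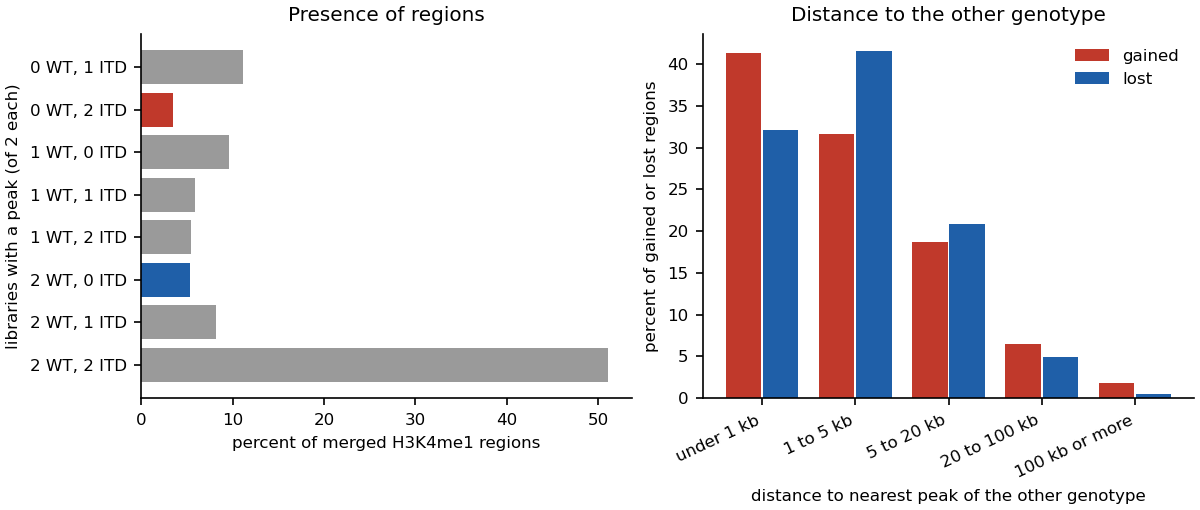
Left: percent of the 164394 merged H3K4me1 regions by the number of WT and Flt3-ITD (ITD) libraries with a peak, gained in red and lost in blue. Right: percent of gained and lost regions by distance to the nearest peak of the other genotype. The 51.1% in all 4 libraries exceed the 3.52% gained and 5.32% lost, and 27% and 26.3% of these lie 5 kb or more away.

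The widest gained region, of 2933 bp at chr3:131218099-131221031, lay in Lef1, a transcription factor of WNT signalling and lymphoid development. The Lef1 window as a whole held 8 and 8 kb in WT and 11 and 9 kb in Flt3-ITD (adjusted p = 0.761, limma) and was not called. The next widest lay in the predicted gene Gm12253, in the kinase gene Mink1, in Clec16a, an endosomal regulator of mitophagy, and, outside genes, 284.5 kb from Zmiz1. The widest lost region, of 3200 bp at chr15:81470926-81474125, lay in Rbx1, the RING subunit of cullin ubiquitin ligases, where the window held 6.48 and 7.61 kb in WT and 4.62 and 5 kb in Flt3-ITD (adjusted p = 0.0593). The others lay in Rabgap1l, 1700057G04Rik and Rnf146 and 23.1 kb from Prss2. Each of the 5 widest in both directions was within 10 kb of a peak of the other genotype.

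H3K27ac was rare at changed regions, and its shares differed little between the genotypes. Of the gained regions, 3.39% and 3.23% had an H3K27ac peak in the WT libraries and 4.04% and 4.37% in the Flt3-ITD libraries, a difference of 0.898 percentage points in which the groups did not overlap (exact permutation p = 0.333, two-sided, the smallest the design allows). Of the lost regions, 3.52% and 3.53% had one in WT and 3.15% and 3.55% in Flt3-ITD (exact permutation p = 1). At constant regions the share was 17.5% ± 0.10 in WT and 20.6% ± 1.63 in Flt3-ITD (SD, n = 2), so that the Flt3-ITD lists covered more H3K27ac there too. H3K27ac was in none of the 4 libraries of that mark at 94.7% of gained and 95.4% of lost regions, against 74.3% of constant ones. Isolated regions had still less: none of the 1562 isolated gained regions had H3K27ac in WT, and 3 and 1 had it in Flt3-ITD. Of the 2302 isolated lost regions, 19 and 18 had H3K27ac in WT and 9 and 12 in Flt3-ITD.

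H3K4me3, the promoter mark, was present at somewhat more of these regions. A peak was at 6.5% and 7.26% of gained regions in WT and 8.12% and 9.64% in Flt3-ITD, which did not overlap (exact permutation p = 0.333). It was at 5.62% and 6.78% of lost regions in WT and 4.93% and 6.17% in Flt3-ITD, which overlapped (exact permutation p = 0.667). At constant regions it was at 29.57% and 32.47% in WT and 32.48% and 38.26% in Flt3-ITD, a mean difference of 4.35 percentage points (exact permutation p = 0.333), so the share was higher in Flt3-ITD there as well. Regions in which H3K4me1 and a second mark changed together by the same presence rule were few. H3K27ac was gained at 41 and H3K4me3 at 83 of the 5789 gained regions, and H3K27ac was lost at 38 and H3K4me3 at 22 of the 8743 lost regions. The opposite change was seen for H3K27ac at 13 and H3K4me3 at 14 of the gained regions, and at 21 and 16 of the lost regions. At constant regions H3K27ac was gained at 2.43% and H3K4me3 at 2.95%, above the 0.708% and 1.43% at gained regions, and they were lost at 0.911% and 0.526%.

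The regions took different levels in the HSPC of the other mutants, which the rule did not use. Gained regions had an H3K4me1 peak at 60.2% and 65.9% in DM, at 19.3% and 34.6% in Npm1c and at 31.2% and 31.5% in Neu. Lost regions had a peak at 12.3% and 10.8% in DM, at 53.7% and 66.2% in Npm1c and at 25.8% and 25.5% in Neu. Both DM libraries had more of the gained and fewer of the lost regions than either Npm1c library. At isolated regions the gap was wider: 69.0% and 73.2% of gained regions were marked in DM against 4.29% and 28.8% in Npm1c, and 6.08% and 5.17% of lost regions in DM against 56.3% and 72.2% in Npm1c. Of the constant regions, 81.0% were marked in both Npm1c, 78.6% in both DM and 69.9% in both Neu libraries. The lists of DM (103088 and 107920 peaks) and of Npm1c library 1 (101792) were shorter than those of WT, and the part of list length in these shares was not tested.

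**Figure D2:**
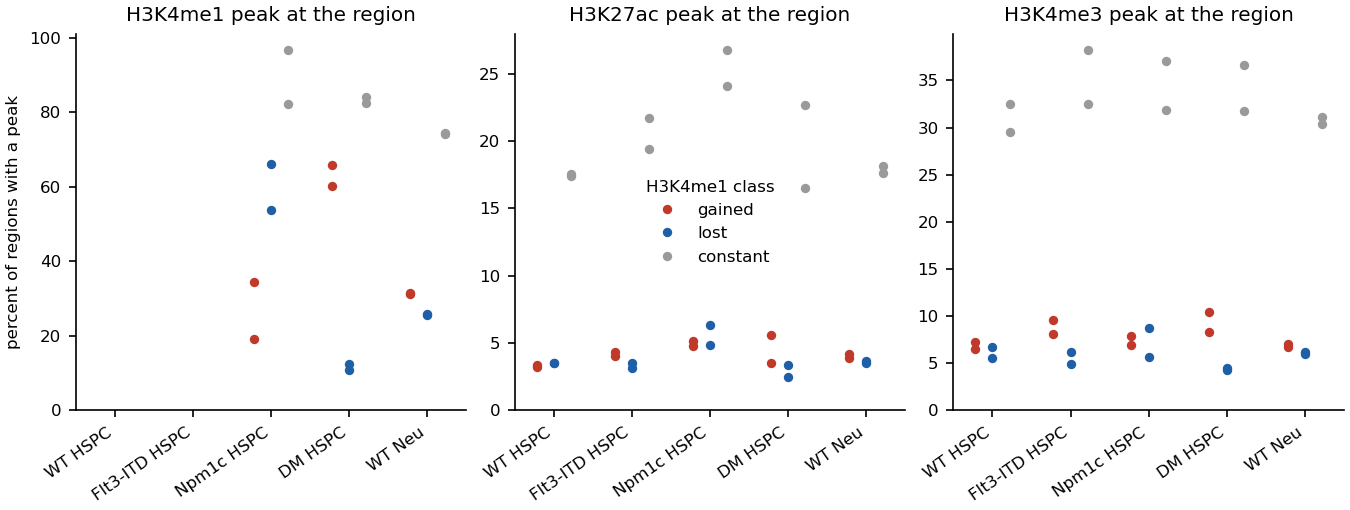
Percent of gained (red), lost (blue) and constant (grey) H3K4me1 regions with an H3K4me1, H3K27ac or H3K4me3 peak, 1 point per library, by group; H3K4me1 in WT and Flt3-ITD is left out because it defined the classes. Gained regions reach 60.2% and 65.9% in DM for H3K4me1, while H3K27ac stays between 3.23% and 5.58% at gained regions in every group.

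Covered base pairs were then summed per gene over its span plus 10 kb on each side. limma on log2(bp + 500) called 91 genes higher (0.54%) and 160 lower (0.949%) of 16856 tested at a Benjamini-Hochberg adjusted p below 0.05, and 2101 had an unadjusted p below that value. Together 251 genes (1.49%) were called, and in each of them every Flt3-ITD library lay on the same side of both WT libraries. Fold changes understate genes with little coverage, and where a group is listed at 0 the log2 difference depends on the added 500 bp and is no fold. The rises were mostly small stretches: 50 of the 91 genes had no peak in either WT library, and 68 had at most 3 kb in both groups. The falls took in larger territories: 25 of the 160 had no peak in Flt3-ITD, 57 had at most 3 kb, and together they went from 1444 and 1501 kb in WT to 838.3 and 842.7 kb in Flt3-ITD. Windows of neighbours overlap, so the 91 rises were 87 and the 160 falls 147 separate stretches. Gained regions lay in 80 of the 91 risen genes and lost ones in 143 of the 160 fallen genes, against 22.7% and 30.9% of all genes tested, from the same peaks.

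How many genes were called rested on the spread that the model assumed. Coverage in whole peaks left many genes without any spread between replicates. With a robust estimate of the spread 5 genes were higher and 17 lower, all among the calls above, and with the residual SD held at 1 peak or more 0 were higher and 3 lower: Car1, Ndst3 and Dennd1a. Without Flt3-ITD library 2, 193 genes were higher. Over the gene span alone, without the flanks, 148 genes were higher and 222 lower, of which 49 and 71 were among the calls above.

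**Figure D3:**
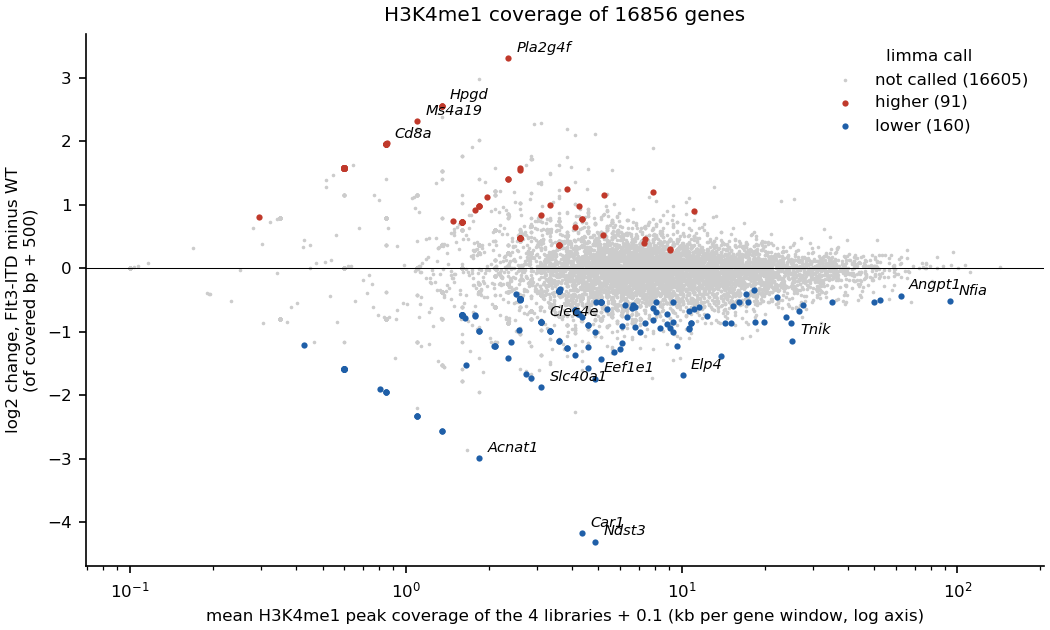
log2 change of H3K4me1 coverage (Flt3-ITD minus WT, of bp + 500) against mean coverage plus 0.1 kb on a log axis, for 16856 genes; red and blue points are the 91 higher and 160 lower calls. Car1 and Ndst3 lie apart at the bottom, and the called rises crowd at low coverage.

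The clearest falls were at Car1 and Ndst3, where every peak of the window was absent. Car1 encodes a carbonic anhydrase abundant in red cells (chr3:14766214-14808365). Its window held 8 and 9 kb in WT and 0 and 0 kb in Flt3-ITD, a change of -4.17 ± 0.15 on the log2(bp + 500) scale (SE, adjusted p = 7.45e-05, limma). The mark was at 7 and 10 kb in Npm1c and at 0 in both DM and both Neu libraries. All 8 regions marked in both WT libraries were lost and none was constant. The nearest Flt3-ITD peak was 10.0 to 30.8 kb away, 7 of the 8 regions carried the mark in both Npm1c libraries, and H3K27ac was seen at a single region, in the flank, in 1 WT and both Npm1c libraries. Over the whole window H3K27ac covered 2.25 and 2.21 kb in WT and 0.888 and 1.31 kb in Flt3-ITD (adjusted p = 0.0968), and H3K4me3 covered 1 and 1 kb against 2 and 2 kb.

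The neighbouring carbonic anhydrase genes kept the mark in Flt3-ITD. Car2 and Car3, named here after their values were seen, had overlapping groups. Car2 held 11 and 8.89 kb in WT against 8.98 and 9.74 kb in Flt3-ITD, and Car3 held 7 and 5 kb against 5 and 6 kb (adjusted p = 1 for each). No lost region lay in either window. In DM, Car2 was at 2 and 4 kb and Car3 at 3 and 5 kb.

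Ndst3, a heparan sulfate N-deacetylase and N-sulfotransferase (chr3:123526166-123691174), held 8 and 11 kb in WT and 0 and 0 kb in Flt3-ITD (-4.31 ± 0.23, adjusted p = 0.000483). Npm1c had 5 and 8 kb, and DM and Neu had none. Its 7 lost regions were 46.3 to 183 kb from the nearest Flt3-ITD peak. The window had no H3K27ac peak in WT or Flt3-ITD. The Car1 and Ndst3 calls held in all 15 settings tried, each replicate left out included.

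**Figure D4:**
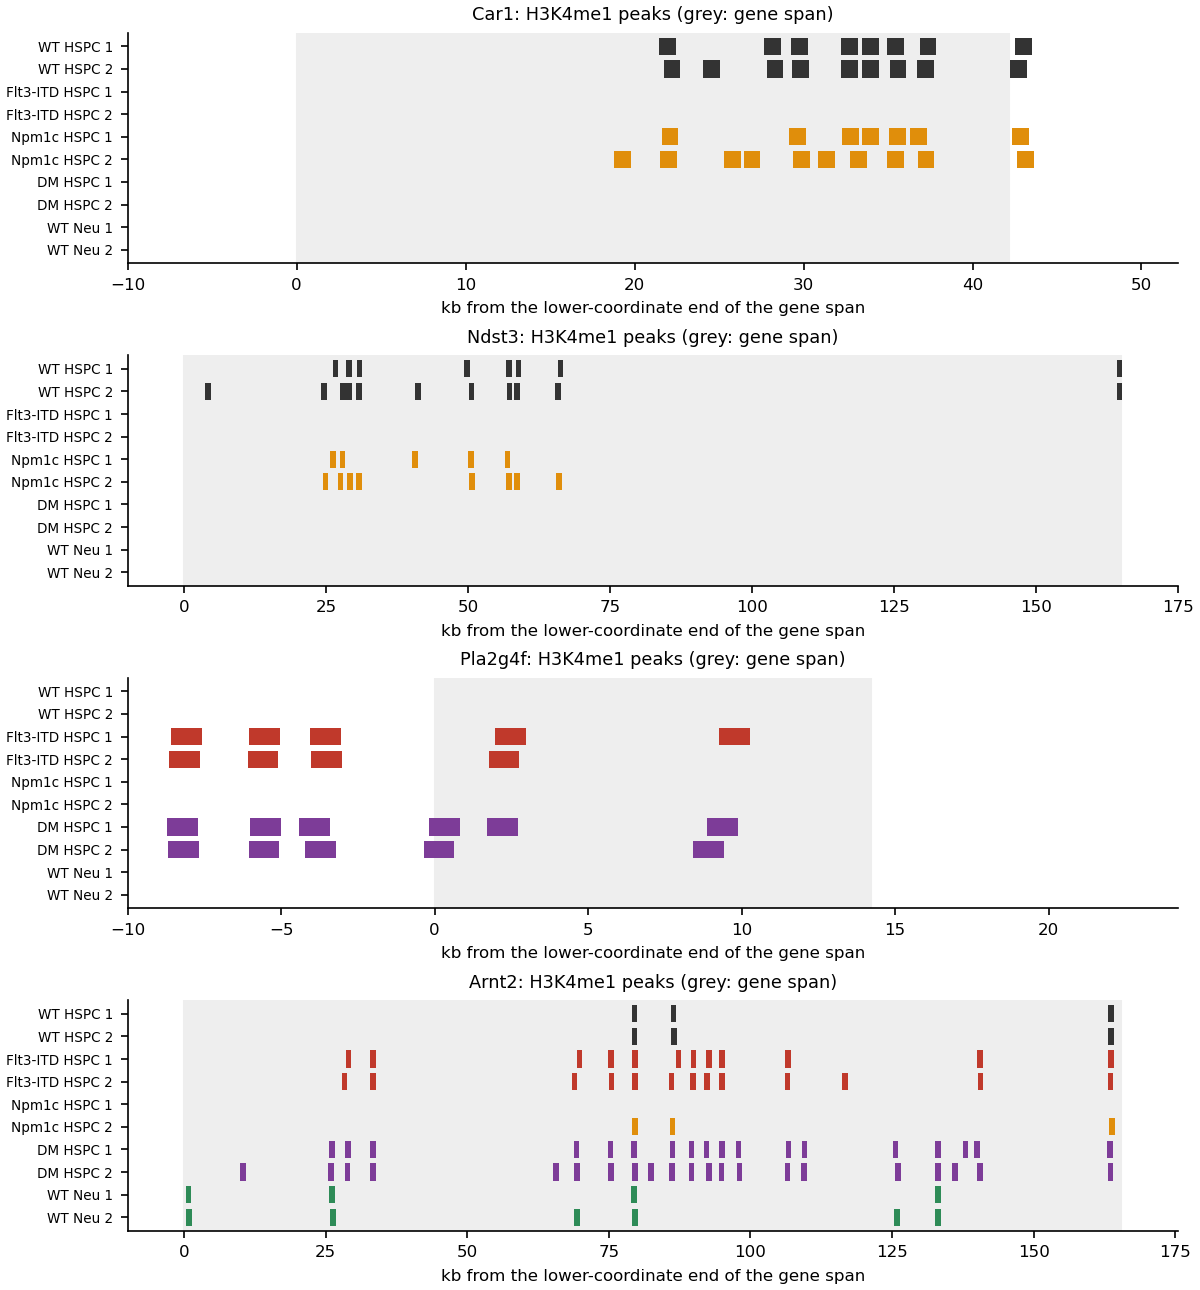
H3K4me1 peaks of the 10 libraries along Car1, Ndst3, Pla2g4f and Arnt2 (gene span plus 10 kb on each side; x axis in kb from the lower-coordinate end of the span, grey). Car1 and Ndst3 are empty in Flt3-ITD, DM and Neu, while Pla2g4f is marked in Flt3-ITD and DM only, at 5 and 4 kb and at 6 and 5 kb.

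Slc40a1 encodes ferroportin, the cellular iron exporter (chr1:45908070-45926532). It held 5 and 5 kb in WT and 1 and 1 kb in Flt3-ITD (-1.87 ± 0.16, adjusted p = 0.00433), with 3 lost regions and 1 constant one. The level was 3 and 4 kb in Npm1c, 1 and 1 kb in DM and 4 and 3 kb in Neu. Eef1e1 held 6.5 and 8.59 kb in WT and 1.35 and 2.59 kb in Flt3-ITD (-1.74 ± 0.25, adjusted p = 0.0373), and DM had 1.41 and 1.43 kb. Over the gene span alone Eef1e1 was not called (-0.98, adjusted p = 0.106). Its groups lay far apart, but the call was lost without WT library 1 (adjusted p = 0.0790) and without WT library 2 (0.166).

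The other 8 of the 12 largest falls ended at 0 in both Flt3-ITD libraries and had 4 kb or less in WT. Acnat1, an acyl-CoA amino acid N-acyltransferase, held 3 and 4 kb in WT (adjusted p = 0.000786), and Baat, which conjugates bile acids and whose window overlaps that of Acnat1, held 3 and 2 kb. Mlip, a lamin-interacting protein of muscle, held 3 and 2 kb, and Tecta, a component of the tectorial membrane, 2 and 2 kb. Taar7b, a trace amine receptor, held 2 and 2 kb, Nobox, an oocyte homeobox gene, and Clca3b, a chloride channel accessory gene, 1 and 2 kb each, and Tshb, the thyrotropin beta chain, 1.84 and 1 kb. All 8 were at 0 in both DM libraries, and all had the mark in both Npm1c libraries, at 1 to 3 kb. Over the gene span alone Baat, Clca3b and Nobox were not called (-0.79 each, adjusted p = 0.768, 0.768 and 0.643). Taar7b did not enter that fit. Calls were lost without either WT library for Tshb (adjusted p = 0.117 and 0.0543), without either Flt3-ITD library for Tshb (0.131 and 0.126), Clca3b (0.144 and 0.135) and Nobox (0.0608 and 0.0549), and without WT library 2 for Clca3b (0.141). Taar7b, Acnat1 and Clca3b belong to families with close copies, and no source used here says how reads that map to several places were treated.

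The largest rise was at Pla2g4f, a cytosolic phospholipase A2 (chr2:120299952-120314165). It held 0 and 0 kb in WT and 5 and 4 kb in Flt3-ITD, a change of 3.32 ± 0.11 on the log2(bp + 500) scale (adjusted p = 5.32e-05, limma). DM had 6 and 5 kb, and Npm1c and Neu had none. Of its 4 gained regions 1 lay in the gene and 3 in the flank, 5.60 to 16.0 kb from the nearest WT peak. In DM 3 of them were marked in both libraries and the other in 1. None had H3K27ac or H3K4me3 in any of the 5 groups. Ms4a19 held 0 and 0 kb in WT and 2 and 2 kb in Flt3-ITD (adjusted p = 2.03e-05), and was marked in Npm1c (1 and 1 kb), DM (2 and 2 kb) and Neu (2.57 and 3 kb) as well. Over the gene span alone Ms4a19 was not called (adjusted p = 0.130).

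The other 10 of the 12 largest rises were also at 0 in both WT libraries and held 1 to 3 kb in Flt3-ITD. Hpgd, Aadacl3, an arylacetamide deacetylase-like gene, and Wdr72, a gene of tooth enamel formation, each held 3 and 2 kb. Hpgd and Aadacl3 were at 0 in DM, Npm1c and Neu, whereas Wdr72 was at 2 and 2 kb in DM. Cd8a held 1 and 2 kb in Flt3-ITD and 2 and 2 kb in DM. Dnah9, a dynein of cilia, held 2 and 1.04 kb. The remaining genes held 1 and 2 kb in either order: Slc5a8, a monocarboxylate transporter, Pcdh15, a cadherin of hair cells, Bhlhe23, a basic helix-loop-helix factor, Cav3, the caveolin of muscle, and B3gat1, which makes the CD57 sugar epitope. The calls of Cd8a, Slc5a8, Pcdh15, Bhlhe23, Cav3 and B3gat1 were lost without WT library 1 (adjusted p = 0.0643 for each) and without WT library 2 (0.0767), and that of Dnah9 without either (0.151 and 0.175) or without Flt3-ITD library 1 (0.103). H3K27ac had no peak in WT or Flt3-ITD at any of the 12. Over the gene span alone, without the flanks, Cd8a (adjusted p = 0.255) and Dnah9 (0.0648) were not called. Aadacl3 and Slc5a8 did not enter that fit, which needs a peak in 2 or more of the 10 libraries.

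With the robust estimate of the spread the 5 genes still higher were Pla2g4f, Ms4a19, Wdr72, Usp43 and Nckap1l, of which Usp43 and Nckap1l are named after their values were seen. Nckap1l, the WAVE complex subunit of blood cells, held 4 and 5 kb in WT and 12 and 10 kb in Flt3-ITD (log2 change 1.20, adjusted p = 0.00938). It was at 12 and 13 kb in DM, 6 and 6 kb in Npm1c and 7 and 7 kb in Neu. Usp43, a deubiquitinase, held 1 and 1 kb in WT, and 4 and 4 kb in Flt3-ITD as well as in DM.

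Genes with the most gained regions were long, and these counts were not set against gene length. Tshz2, a teashirt zinc finger gene with a span of 440.2 kb, had 14 of them, the most of any gene tested, and 8 fell in a single 100 kb tile. Its window held 16 and 16 kb in WT and 39 and 31 kb in Flt3-ITD (log2 change 1.10, adjusted p = 0.354), with 48 and 58 kb in DM, 9 and 24 kb in Npm1c and 15 and 15 kb in Neu. The groups did not overlap, but Tshz2 was not called. Arnt2, a basic helix-loop-helix PAS factor, had 9 gained regions over a span of 165.5 kb, 3 constant ones and no lost one. It held 3 and 3 kb in WT and 12 and 13 kb in Flt3-ITD (log2 change 1.89 ± 0.83, adjusted p = 0.440), with 18 and 21 kb in DM and 0 and 3 kb in Npm1c. All 9 were marked in both DM libraries and in no Npm1c library, and none had H3K27ac. With only the 4 libraries compared in the fit, the H3K4me1 log2 change at Arnt2 passed the threshold (adjusted p = 0.00729). That fit also ended calls of other named genes, given in the closing section.

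Nav2, a neuron navigator gene, and Lrmda, with spans of 651.0 and 1037 kb, had 10 gained regions each. Nav2 held 41.3 and 44.5 kb in WT and 64.5 and 53.6 kb in Flt3-ITD (adjusted p = 0.390), and Lrmda overlapped at 57 and 63 kb against 72 and 55 kb. The genes tied at 8 were Fstl4, the growth factor gene Nrg1, the GTPase-activating protein gene Arhgap26, which had 8 lost regions as well, and the haematopoietic ETS repressor Etv6. Etv6 held 77 and 80 kb in WT against 93.6 and 85.2 kb in Flt3-ITD, and Nrg1 13 and 16 kb against 35 and 27 kb. None of these genes was called for H3K4me1.

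Lost regions were most numerous in Rabgap1l, Nfia and Mllt3, with 12 each, and in Tnik, Fbxl17, Sox5 and Csgalnact1, with 11 each. Nfia, a transcription factor of glial and erythroid differentiation, held 106 and 116 kb in WT and 74 and 81 kb in Flt3-ITD (-0.52 ± 0.08, adjusted p = 0.0406). It held 118 and 116 kb in Npm1c and 47 and 52 kb in DM. Tnik, a kinase of WNT signalling, held 33 and 36.5 kb in WT and 15 and 16 kb in Flt3-ITD (-1.14 ± 0.14, adjusted p = 0.0245), with 9 and 7 kb in DM, 36 and 34 kb in Npm1c and 5 and 4 kb in Neu. Both calls were lost with any of the 4 libraries left out, at adjusted p from 0.0555 to 0.165 for Nfia and from 0.0680 to 0.126 for Tnik. Mllt3, a chromatin reader of stem cells, held 43 and 48 kb in WT and 32 and 31 kb in Flt3-ITD (adjusted p = 0.105), and was not called. Rabgap1l (adjusted p = 0.124), Fbxl17 (0.0913), Sox5 (0.0852) and Csgalnact1 (0.163) also had lower, separate groups without a call.

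Sox6 and Dennd1a are added after their values were seen, as further long genes with a call. Sox6, a regulator of globin genes and red cell maturation, held 57 and 60.2 kb in WT and 41.0 and 40 kb in Flt3-ITD (-0.53 ± 0.05, adjusted p = 0.0105), with 18 and 19.2 kb in DM. The Sox6 call ended without WT library 2 (adjusted p = 0.0563), with centring on the median (0.0762), with a robust spread (0.0566) and with equal list lengths (0.246). Dennd1a, an exchange factor of endocytic Rab proteins, held 61 and 62 kb in WT and 44 and 43 kb in Flt3-ITD (log2 change -0.49, adjusted p = 0.00130), with 69.5 and 68 kb in Npm1c and 22 and 22 kb in DM and in Neu. Dennd1a passed with the SD held at 1 peak but was not among the calls with a robust spread.

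Lineage lists, chosen with earlier results of these data known, held few calls, and their medians lay near that of all genes, 0. Of all genes tested 1.49% were called, so few calls in a short list are no result about its members. Of 33 erythroid genes tested 1 fell, Car1, and none rose, with a median log2 change of -0.18. Groups did not overlap for 9 erythroid genes that were lower and 4 that were higher, against 18.6% and 12% of all genes tested. Epor, the erythropoietin receptor, held 6 and 5 kb in WT and 3 and 4 kb in Flt3-ITD (adjusted p = 0.231), and Kel, a blood group antigen, 7 and 8.38 kb against 3 and 6.51 kb (0.428). Epor and Kel are examples from the 9 lower genes, and none of the 4 higher ones is shown. Klf1, the erythroid master regulator, overlapped at 7 and 6 kb against 7 and 8 kb. The list as a whole summed to 302.2 and 318.2 kb in WT, to 278.2 and 289.6 kb in Flt3-ITD, 302.9 and 312.1 kb in Npm1c and 177.9 and 187.9 kb in DM. The other 32 erythroid genes tested were not called.

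The 20 megakaryocyte and platelet genes had no call and a median of -0.10, with 7 lower and 1 higher in groups that did not overlap, against 18.6% and 12% of all genes. Rab27b, a platelet granule secretion GTPase, held 24 and 21 kb in WT, 13 and 11 kb in Flt3-ITD (log2 change -0.88, adjusted p = 0.231) and 9 and 6 kb in DM. Gp6, the collagen receptor, held 0 and 0 kb against 1 and 2 kb (adjusted p = 0.190). Pf4, a platelet chemokine, was at 6.26 and 7.50 kb against 4.21 and 4 kb (0.278).

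Of 23 stem and progenitor genes 1 fell and none rose, and the median was 0.04. Groups did not overlap for 7 that were higher and 6 that were lower, against 12% and 18.6% of all genes. Angpt1, the ligand of the TIE2 receptor, held 73 and 70 kb in WT and 52 and 54 kb in Flt3-ITD (-0.43 ± 0.05, adjusted p = 0.0216), with 9 lost and 37 constant regions. It held 70 and 69 kb in Npm1c, 23 and 22 kb in DM and 13 and 12 kb in Neu. The Angpt1 call was lost without WT library 1 (adjusted p = 0.0857), WT library 2 (0.0653) or Flt3-ITD library 1 (0.0731). Flt3 itself held 15 and 16 kb in WT and 20 and 17 kb in Flt3-ITD (log2 change 0.24, adjusted p = 0.712), with 14 constant regions and none gained or lost. Npm1, the gene altered in Npm1c mice, held 5 and 4 kb against 5 and 5 kb (0.770).

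Among myeloid lists, the 18 primary granule and granulocyte-monocyte progenitor genes had no call and a median of 0.01. Prtn3, a granule protease, held 7.47 and 5.68 kb in WT and 8.67 and 9.64 kb in Flt3-ITD (adjusted p = 0.316), and Fcnb, a ficolin, 9 and 7 kb against 6.49 and 5.28 kb (0.469). Of 26 mature neutrophil genes 1 fell, Clec4e, a C-type lectin receptor that held 4 and 4 kb in WT and 2 and 2 kb in Flt3-ITD (-0.85 ± 0.06, adjusted p = 0.00131). The Clec4e difference was in the flanks: over the gene span alone it was -0.03 (adjusted p = 1), and the call also ended with centring on the median (0.118), a robust spread (0.0871) and equal list lengths (0.25). Groups did not overlap for 9 neutrophil genes that were lower and for none that was higher, against 18.6% and 12% of all genes, with a median of -0.17. The list summed to 151.7 and 154 kb in WT and 142.9 and 124.8 kb in Flt3-ITD, but to 217.2 and 242.1 kb in Neu. The 20 monocyte and macrophage genes had no call and a median of 0. Groups did not overlap for 4 that were higher and 2 that were lower, against 12% and 18.6% of all genes. Of the 4 higher ones, F13a1, a coagulation factor chain, held 14 and 15.3 kb against 21 and 18 kb (0.565). The chemokine Ccl9, another of the 4, held 6.20 and 6.10 kb against 9 and 7 kb (0.365). The 19 eosinophil, basophil and mast cell genes had no call and a median of -0.08. The mast cell carboxypeptidase Cpa3 held 6 and 7 kb against 5 and 3 kb (0.608), and the basophil protease Prss34 overlapped at 1 and 4 kb against 1 and 0 kb.

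The 24 dendritic cell and MHC class II genes had no call, a median of 0.13, and 6 higher and 3 lower in groups that did not overlap, against 12% and 18.6% of all genes. Cd74, the invariant chain of MHC class II, held 1 and 1 kb in WT and 3 and 3 kb in Flt3-ITD (log2 change 1.22, adjusted p = 0.150), with 4 and 2 kb in Npm1c and 5 and 5 kb in DM. Cd209a, a lectin of monocyte-derived dendritic cells, held 1 and 1 kb against 3 and 3 kb (0.351) and 6 and 6 kb in DM. With only the 4 libraries compared in the fit, the H3K4me1 log2 change at Cd74 passed the threshold, as did the H3K4me1 log2 change at Cd209a (adjusted p = 0.000574 for each). Both genes had equal coverage in the libraries of each group, so neither showed any spread there. The same fit ended 18 calls among the named genes.

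Of 22 B-lymphoid genes 1 fell, Cd72, a B cell coreceptor, at 8 and 8.29 kb in WT and 5.36 and 5 kb in Flt3-ITD (-0.61 ± 0.09, adjusted p = 0.0419), and the median was 0.03. The Cd72 call was lost with any of the 4 libraries left out, at adjusted p from 0.0909 to 0.171. Of 19 T and NK cell genes 1 rose, Cd8a, and the median was -0.09. Cd3e, which defines T cells, was at 2 and 1.81 kb in WT and 2 and 1 kb in Flt3-ITD (adjusted p = 0.966).

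Lists of signalling genes held no call, beside 1.49% called of all genes tested. Among the genes of FLT3 and cytokine receptor signalling, groups did not overlap for 4 that were higher and 5 that were lower. Among the STAT5 and MAPK feedback and target genes these were 4 and 8, against 12% and 18.6% of all genes. The 28 genes of FLT3 and cytokine receptor signalling had a median of -0.07, and the adaptor Shc1 held 7 and 7.96 kb in WT and 9.78 and 10.8 kb in Flt3-ITD (adjusted p = 0.231). Hras, of the RAS family, overlapped at 5 and 5.05 kb against 2 and 5 kb. Stat5a, a transcription factor downstream of FLT3-ITD, held 15.1 and 12 kb against 10.2 and 10 kb (0.195), and Jak2 10.6 and 10.6 kb against 8.35 and 7.64 kb (0.534). The 28 STAT5 and MAPK feedback and target genes had a median of -0.02, with the RAS-MAPK inhibitor Spred1 at 15 and 14 kb against 12 and 10 kb (0.163) and Spry1 at 6.35 and 8.40 kb against 5.95 and 4.96 kb (0.653). Cish and Pim1, STAT5 targets, were at 8.64 and 7.53 kb against 6.51 and 9.46 kb and at 6.92 and 7 kb against 7 and 7 kb.

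The 21 AP-1 and immediate early genes and the 25 interferon-stimulated genes had no call and medians of 0. Atf3, a stress-induced factor, held 2 and 3 kb in WT and 5 and 4 kb in Flt3-ITD (adjusted p = 0.141), and Ier2 6 and 6 kb against 4 and 5 kb (0.348). Gbp3, an interferon-induced GTPase, held 2 and 2.89 kb in WT and 6 and 6.85 kb in Flt3-ITD (log2 change 1.25, adjusted p = 0.148), with 4 gained regions in its window. Oas1a held 0 and 1 kb against 0 and 0 kb. The 25 HOX and HOX cofactor genes had no call and a median of 0.14, with 9 higher and 3 lower in groups that did not overlap, against 12% and 18.6% of all genes. Hoxa4 held 1 and 1 kb against 2 and 3 kb (0.150), and windows of HOX genes overlap, so that neighbours share peaks.

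The 13 housekeeping genes had no call and a median of 0, with Ppia at 6 and 8 kb against 6 and 4 kb. The 14 tested genes of other tissues had no call and a median of 0.10, and the heart myosin genes Myh6 (0 and 1 kb against 2 and 2 kb) and Myh7 (1.76 and 2.57 kb against 3.98 and 3.76 kb) had adjusted p of 0.451 and 0.236.

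**Figure D5:**
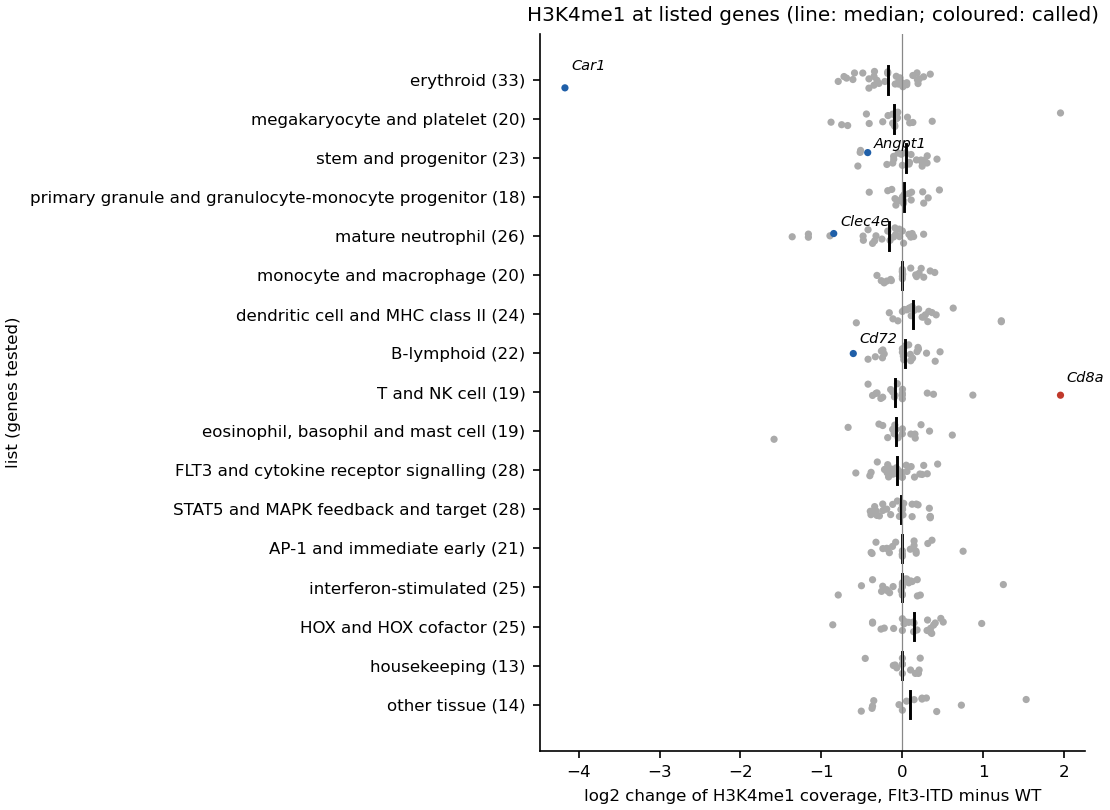
log2 change of H3K4me1 coverage (Flt3-ITD minus WT) for each tested gene of the 17 lists, with the list's median as a black line, called falls in blue and the called rise in red. The medians lie between -0.18 (erythroid) and 0.14 (HOX), and Car1 lies apart from the other erythroid genes.

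The 3 marks called mostly different genes. For H3K27ac limma called 13 genes higher (0.098%) and 4 lower (0.0301%) of 13267 tested, and for H3K4me3 418 higher (2.61%) and 71 lower (0.443%) of 16010, or 0.128% and 3.05% in either direction. Every H3K4me3 peak was 1000 bp wide too, and the other settings of the spread and list length were run for H3K4me1 only. The H3K4me3 lists held 29574 and 33572 peaks in WT and 32272 and 38493 in Flt3-ITD. The H3K27ac lists held 21518 and 21175 peaks in WT and 23109 and 24234 in Flt3-ITD. How far the counts of either mark rest on spread or list length was not tested. None of the 13 genes with more H3K27ac was called for H3K4me1, where their median log2 change was 0.05. Of the 91 genes that rose in H3K4me1, 68 had too little H3K27ac to be tested, 23 were not called for it, and 3 rose in H3K4me3. Of the 160 that fell, 1 fell in H3K27ac and 1 in H3K4me3. Irf8, a transcription factor of dendritic cells and monocytes, and Mef2c, a factor of myeloid and lymphoid progenitors, are named after their values were seen. Irf8 had no H3K27ac in WT and 3.74 and 3.36 kb in Flt3-ITD (adjusted p = 0.0256), while its H3K4me1 overlapped at 12.9 and 11.8 kb against 15 and 11.8 kb. Mef2c went from 1.63 and 1.93 kb to 11.1 and 9.71 kb of H3K27ac (log2 change 2.26, adjusted p = 0.0256), while its H3K4me1 was 40 and 43 kb against 36 and 38 kb (adjusted p = 0.719). At Flt3 H3K27ac was 0.942 and 0.718 kb in WT and 5.39 and 4.30 kb in Flt3-ITD (log2 change 2.0, adjusted p = 0.0520), just short of the threshold. In the windows of these 3 genes WT cells had H3K4me1, with no H3K27ac at Irf8 and less than in Flt3-ITD at Mef2c and Flt3. Whether the marks lay at the same sites within a window was not tested.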

How the data were processed

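ChIP-seq peak lists were analysed. Per the submitters' processing notes, the authors aligned reads to mm10 with Bowtie2 2.1.0 and used Picard, HOMER and MACS2, with versions and settings not given in the sources used here. All deposited files hold other values than counts or scores: peak coordinates in 3 columns (chromosome, start, end) per library. Depth is therefore unknown, and no interval that needs it is given. The 5 input samples were not analysed here.

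Peaks on chromosomes 1 to 19 were merged and classed by presence (an overlap of at least 1 bp). Base pairs under peaks were summed over 20665 protein-coding gene spans of the RefSeq table of GRCm38.p6, the assembly of mm10, plus 10 kb on each side. Genes with a peak in 2 or more of a mark's 10 libraries entered limma 3.58.1 (R 4.3.3; lmFit, eBayes with trend) on log2(bp + 500), with the 5 groups in 1 fit and Benjamini-Hochberg adjustment at 0.05. The script was tested on simulated peak numbers, drawn independently for each library. Such data cannot show whether the spread assumed for the real lists holds. Shares of regions were compared by exact permutation over libraries. Same-numbered libraries did not deviate together (correlation -0.0467 between WT and Flt3-ITD), so no block was used. Promoter motifs were searched in the RefSeq promoter table.

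Named genes were the 12 largest rises and 12 largest falls among called genes whose 4 single-library differences had the same sign (clone names left out), the 5 genes with most gained and with most lost regions (ties kept), called members of 17 lists (or the 2 largest changes), Flt3, Npm1 and the 5 widest regions each way. Some genes that this rule names are not reported here. Other list members are given as examples chosen after their values were seen. Members and lists were chosen with earlier results of these data known. Python 3.11.15, NumPy 2.4.6, pandas 2.3.3 and matplotlib 3.10.9 were used. The closing section gives the effect of the alternatives.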

Additional observations from a re-analysis of the deposited data

How the results depend on the processing

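Counts of called genes moved with the model of the spread. The counts of higher and lower genes were 376 and 524 with only the 4 libraries compared (62 and 95 among the main calls), 5 and 17 with a robust estimate of the spread, and 0 and 3 with the residual SD held at 1 peak. With equal list lengths they were 58 and 41, with 35 and 25 among the main calls. Without the 10 kb extension they were 148 and 222, with 49 and 71 among the main calls. With libraries centred on their median they were 65 and 68, with 55 and 51 among the main calls. Among the named genes Car1 and Ndst3 kept their call in all 15 settings, and Pla2g4f, Slc40a1, Acnat1 and Tecta lost it only with the SD held at 1 peak. With only the 4 libraries compared, 18 of the named calls ended and 4 uncalled named genes passed. The ended calls included Hpgd, Aadacl3, Wdr72, Baat and Mlip (adjusted p = 0.0518 for each), Cd8a (0.178), Nfia (0.165) and Eef1e1 (0.261). Coverage of same-numbered libraries did not deviate together, which cannot tell whether they were prepared together. A replicate block gave 70 higher and 97 lower genes, 70 and 92 of them among the main calls. Leaving out 1 library at a time, where the lone library of a group is assumed to vary like the other groups, gave 77 to 193 higher and 126 to 239 lower genes. Gained regions numbered 3280 and lost ones 5556 when peaks were merged over gaps of up to 1000 bp. With 1 library left out the presence rule is met by 1 library in a group, and gained regions numbered 9036 to 18503 and lost ones 14323 to 18386. H3K27ac at lost regions differed by -0.183 percentage points, by 0.0175 without Flt3-ITD library 1 and by -0.3835 without Flt3-ITD library 2. At a distance of 10 kb instead of 5 kb, 15.8% of gained and 13.3% of lost regions were isolated. Peak files record no depth, so that a weak peak missed in 1 library and an absent mark cannot be told apart.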
